A study of Mus musculus with 3 samples.

Results

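Immediate early and stress-response genes were followed in sorted reporter-positive cells of a mouse sympathetic ganglion. They were 44 genes, chosen by name from 52550 in the deposited table, and all 44 had a row. At least 1 read in at least 1 library was found for 39 of them, and for 27402 genes in all.

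The libraries form 1 group of 3 biological replicates from male mice aged 10 weeks with the genotype LepRCRE::Ai32. LepRCRE places Cre recombinase under control of the leptin receptor gene, and Ai32 is a Cre-dependent allele whose product carries yellow fluorescent protein. Cells of the superior cervical ganglion were dissociated, live fluorescent cells were sorted, and Smart-Seq2 libraries, made from full-length cDNA amplified by PCR, were sequenced. Because recombination is permanent, the reporter also marks cells whose Lepr transcription has ended and their descendants. By the title of the series they are perineurial cells, which wrap peripheral nerve. The sources used here give neither the number of cells nor the number of animals behind a library. There was no second group and no sample of undissociated tissue, so RNA present in the ganglion cannot be told apart from RNA made during dissociation and sorting. In such bulk libraries, fewer cells of a type and less RNA per cell cannot be told apart either.

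Immediate early genes are switched on within minutes of a stimulus without new protein synthesis, because the factors that drive them, such as serum response factor and CREB, are already in the nucleus and are activated by kinases. Many encode transcription factors (the Fos, Jun, EGR, NR4A and Kruppel-like families) that go on to change the expression of later genes. Others encode brakes, such as phosphatases of MAP kinases, inhibitors of NF-kB and proteins that destroy short-lived mRNAs. Their own transcripts and proteins are short lived, and the genes are known to respond to enzymatic dissociation of tissue.

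Levels are in TPM, a share of all transcripts in the library that corrects for gene length, so they can be set side by side between genes. The whole reads behind them were recovered from the deposited values, 7652201 to 8169060 per library, and 1 read on a gene of 1 kb was worth 0.391 to 0.418 TPM. Mitochondrially encoded genes took 19.9% to 21.1% of TPM. Lepr stood at 363, 32.1 and 54.0 TPM in replicates 1, 2 and 3. Of 16 perineurial markers 4 lay above 1 TPM, among them the barrier claudin Cldn1 at 227 ± 15.9 TPM (SD, n = 3), while Krt19 had no read. Of 14 markers of satellite glia and Schwann cells 11 lay above 1 TPM, and their summed level was 28081 to 32977 TPM per library. Fibroblast markers summed to 4530.3 to 6675 TPM, with 7 of 12 above, and endothelial markers to 336 to 475 TPM, with 3 of 12 above. Sums for neuronal, mural and macrophage markers were 126 to 339, 137 to 647 and 4.11 to 173 TPM, with 2 of 16, 5 of 12 and 0 of 14 above. Lymphocyte markers summed to 0.660 to 3.31 TPM, and 6 of 12 had no read.

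The strongest members were Fos, Nfkbia, Btg1, Klf6, Btg2 and Klf9, each with a mean above 150 TPM. Fos encodes the defining partner of the AP-1 transcription factor, Nfkbia the inhibitor that holds NF-kB in the cytoplasm, Btg1 and Btg2 antiproliferative proteins that recruit the mRNA deadenylation machinery, and Klf6 and Klf9 Kruppel-like zinc finger factors. Against them, Maff, Egr4, Nr4a3, Dusp4 and Dusp5 had no read in any library. The 44 genes together held 2562, 2468 and 1905 TPM in replicates 1, 2 and 3, a mean of 2312 ± 355 TPM (SD, n = 3) or 0.231% of the total.

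To place each gene, its mean log2(TPM + 1) was tested against the value at 1 TPM with limma's moderated two-sided test, adjusted by Benjamini and Hochberg's method over 27402 genes, with a threshold of 0.05. A fold on this scale understates changes of low genes. Of the 44 members 21 were above 1 TPM, none was below, 18 were called neither and 5 had no read. Of all genes tested 16.3% were called above and 14.1% below. The 0 called below by limma stands beside 2 members, Fosl1 and Gadd45b, whose unadjusted p was under 0.05 in that direction. The median over members with a read was 4.47 on the log2(TPM + 1) scale, and over all genes with a read 0.89. A level of at least 1 TPM in every library was reached by 27 members, compared with 24.5% of all genes tested. All 44 members are protein-coding, but only 17148 of the 27402 genes with a read are, so these backgrounds mix gene types. The same shares over protein-coding genes alone were not computed.

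The calls depended on which libraries were used. Without replicate 1 or without replicate 2 limma called 0 members and 0 genes above 1 TPM at the adjusted threshold. At an unadjusted p under 0.05 these fits had 18 and 21 members above, beside 4646 and 4452 of the 27402 genes tested. With replicate 3 left out, 10 members were called above, beside 2435 of all genes. At an unadjusted p under 0.05 that fit had 19 members and 4547 genes above. The adjusted calls of Fos, Fosb, Atf4, Cebpd, Klf2, Klf4, Dusp1, Zfp36, Zfp36l2, Btg2 and Rhob were lost without replicate 3. That of Fos was lost at an adjusted p of 0.0510 in limma.

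**Figure D1:**
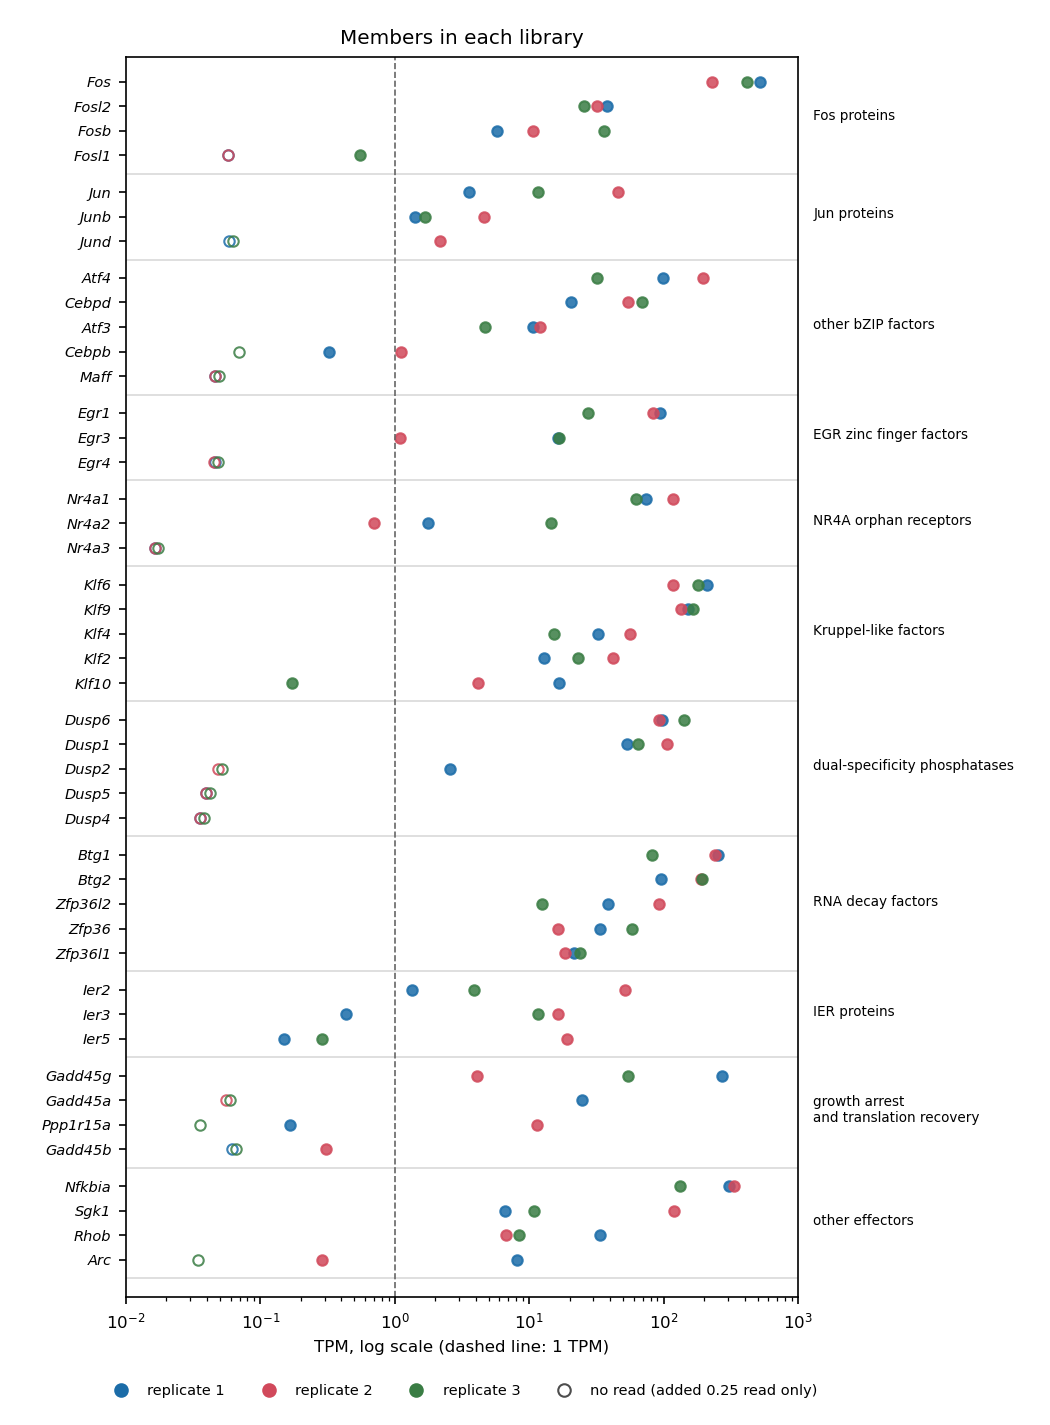
TPM of each of the 44 members in replicates 1, 2 and 3 on a log axis, grouped by role, with 1 point per library, open where the library had no read and the value holds only the 0.25 read added before deposit. The dashed line is at 1 TPM. Klf9, Zfp36l1 and Dusp6 keep their 3 points close together, while Gadd45g, Ier2, Ier5 and Sgk1 spread over more than a factor of 10.

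The sequences before the transcription start were read from RefSeq for GRCm38.p6, in windows of 250 bases before to 50 bases after the start. Windows were found for 35 members by symbol. The others, Fosl1, Cebpd, Egr1, Egr3, Klf10, Dusp4, Ier2, Zfp36l2 and Arc, are named only. The upstream 150 bases of 3 steadily or strongly expressed members are shown because each carries letters that match a class of signal input. Capitals mark TGACG, the core of the cyclic AMP response element (CRE), and the TATA box TATAAA in Fos (chr12:85473740-85473889, forward strand). In Klf9 (chr19:23141076-23141225, forward strand) they mark TGACG and TGAATCA, a match to the AP-1-like pattern TGANTCA. In Nfkbia (chr12:55492648-55492797, reverse strand) they mark an NF-kB site.
Fos: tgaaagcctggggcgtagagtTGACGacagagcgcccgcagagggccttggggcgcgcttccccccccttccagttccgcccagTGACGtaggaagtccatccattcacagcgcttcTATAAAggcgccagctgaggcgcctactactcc
Klf9: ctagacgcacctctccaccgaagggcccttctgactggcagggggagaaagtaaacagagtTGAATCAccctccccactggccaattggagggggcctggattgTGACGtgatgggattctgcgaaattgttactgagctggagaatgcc
Nfkbia: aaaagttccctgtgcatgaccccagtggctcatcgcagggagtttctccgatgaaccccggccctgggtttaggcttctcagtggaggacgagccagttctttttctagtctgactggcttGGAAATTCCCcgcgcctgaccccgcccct

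The full CRE, TGACGTCA, the palindrome bound by CREB and ATF factors, was found in 4 members. Stretches around it are shown because the 4 genes share these letters and differ in level. The stretches lie at chr1:134079278-134079357 (Btg2, reverse strand), chr17:26508572-26508651 (Dusp1, reverse strand), chr7:45526249-45526316 (Ppp1r15a, reverse strand) and chr15:79347455-79347534 (Maff, forward strand), with the CRE in capitals.
Btg2: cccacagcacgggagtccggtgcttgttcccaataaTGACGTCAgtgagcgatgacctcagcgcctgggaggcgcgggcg
Dusp1: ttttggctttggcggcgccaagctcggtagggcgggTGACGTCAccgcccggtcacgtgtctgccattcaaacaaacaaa
Ppp1r15a: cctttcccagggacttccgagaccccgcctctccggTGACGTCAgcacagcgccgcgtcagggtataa
Maff: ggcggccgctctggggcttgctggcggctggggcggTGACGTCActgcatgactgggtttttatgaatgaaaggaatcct

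Btg2 and Dusp1 were above 1 TPM, at 161 ± 55.8 and 74.9 ± 28.3 TPM. Ppp1r15a had 86 reads in replicate 2, 1 in replicate 1 and 0 in replicate 3, and Maff had none in any. Their CREs begin at -166, -143, -12 and -29 from the RefSeq start for Btg2, Dusp1, Ppp1r15a and Maff.

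Among the 35 members with a window, the CArG box, bound by serum response factor, was found in Zfp36 and Dusp5, shown for the same reason. Sequence more than 250 bases before the start was not read, nor were members without a window, such as Egr1. The other members can therefore not be said to lack the box. The stretches are chr7:28379241-28379322 (Zfp36, reverse strand) and chr19:53529027-53529108 (Dusp5, forward strand), with the boxes in capitals. Dusp5 carries a pair of them end to end.
Zfp36: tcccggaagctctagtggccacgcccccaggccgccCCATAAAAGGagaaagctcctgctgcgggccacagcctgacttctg
Dusp5: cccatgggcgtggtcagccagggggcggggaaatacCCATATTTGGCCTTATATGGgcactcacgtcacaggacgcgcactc

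Zfp36 was above 1 TPM at 35.9 ± 20.7 TPM (SD, n = 3), whereas Dusp5, with both boxes, had no read.

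Among the Fos proteins, the AP-1 subunits that pair with Jun proteins, Fos led in every library. Fos (chr12:85473890-85477273, GRCm38, 4 exons) stood at 519, 231 and 419 TPM in replicates 1, 2 and 3, from 3117, 1389 and 2357 reads. Replicate 2 was the lowest, and the level lay 7.53 above 1 TPM on the log2(TPM + 1) scale (limma, SE 0.32, adjusted p = 0.00383). Fosl2, which encodes Fra-2, a more stably made Fos relative, had 37.8, 31.8 and 25.7 TPM (limma, adjusted p = 0.00456). Its values lay close together in the 3 libraries. Fosb had 5.78, 10.7 and 35.8 TPM, with replicate 3 over 3 times the next value, and just passed the test (limma, adjusted p = 0.0498). It did not pass without mitochondrially encoded genes (limma, adjusted p = 0.0663). Fosl1, encoding Fra-1, had 2 reads in replicate 3 and none elsewhere (limma, adjusted p = 0.0813). Fos therefore made up 92.2%, 84.5% and 87.1% of the summed TPM of the Fos genes. The difference of Fos minus Fosl2 was 3.51 ± 0.61 on the log2(TPM + 1) scale (SD, n = 3), positive in 3 of 3 libraries. Fosl2 and Fosb changed order between libraries.

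Jun proteins, the AP-1 partners of Fos proteins, were far lower, and none of the 3 genes was called above 1 TPM. Jun had 3.59, 45.7 and 11.7 TPM (limma, adjusted p = 0.0757), with replicate 2 standing 12.7-fold above replicate 1. It passed with a pseudocount of 0.25 and with a mean-variance trend (limma, adjusted p = 0.0478 and 0.0308). Junb, a Jun protein that restrains growth, had 1.40, 4.63 and 1.68 TPM from 8, 27 and 9 reads (limma, adjusted p = 0.194). Jund, in most tissues a constitutively expressed family member, had 9 reads in replicate 2, equal to 2.17 TPM, and none in the others (limma, adjusted p = 0.537). Replicate 2 was the highest library for all 3. Within each library the order was Jun, Junb, Jund. The Fos genes summed to 562, 273 and 481 TPM and the Jun genes to 5.05, 52.5 and 13.4 TPM, so the Fos sum was higher in every library. In GENCODE M21 all 3 Jun genes share exon bases with a gene on the opposite strand, 877 of the 1668 bases of Jund with Gm11175, 232 bases of Jun with Junos and 173 bases of Junb with Prdx2. No source used here gives the strand setting of the counting or its handling of shared bases. Reads there may have been counted for these genes, for the partners or for neither, so the levels could be too high or too low. The same limit holds for other members, 13 in all. It covers 1672 bases of Zfp36l1, 1163 of Fosl1, 562 of Cebpd, 547 of Dusp5, 337 of Gadd45a and 312 of Cebpb. For Zfp36, Zfp36l2, Ppp1r15a and Dusp1 it covers 125 bases or fewer.

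Of the other leucine zipper factors Atf4, Cebpd and Atf3 were above 1 TPM. Atf4, the effector of the integrated stress response, whose protein is made when general translation slows, had 99.0, 198 and 31.8 TPM (limma, adjusted p = 0.0224). Cebpd, a factor of the acute phase response, had 20.6, 54.8 and 68.9 TPM (limma, adjusted p = 0.0161). The 2 ran differently over the libraries, with replicate 3 the lowest for Atf4 and the highest for Cebpd. Atf3, a stress-induced repressor known as an injury marker in peripheral neurons and glia, had 10.6, 12.0 and 4.70 TPM (limma, adjusted p = 0.0414). That call was lost with a filter at a mean of 0.5 TPM and with a mean-variance trend (limma, adjusted p = 0.0512 and 0.122). Cebpb, a relative of Cebpd in inflammatory responses, had 1, 4 and 0 reads (limma, adjusted p = 0.264). Maff, a small Maf protein, had no read, and 3 reads would have been 0.554 TPM in replicate 1.

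Among the EGR factors, zinc finger proteins downstream of ERK, Egr1 was the main member. Egr1 had 94.8, 83.1 and 27.5 TPM, lowest in replicate 3 (limma, adjusted p = 0.0147). Egr3 had 16.4, 1.09 and 16.5 TPM, so that replicate 2 stood apart by a factor of 15.2 (limma, adjusted p = 0.141). Egr4 had no read. Egr1 minus Egr3 was 2.83 ± 2.34 on the log2(TPM + 1) scale, positive in 3 of 3 libraries.

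The NR4A genes encode orphan nuclear receptors that act without a known hormone. Nr4a1 (Nur77) had 73.6, 117 and 61.9 TPM (limma, adjusted p = 0.00456) and made up 97.6%, 99.4% and 81.1% of the family's TPM. Nr4a2 (Nurr1) had 1.76, 0.698 and 14.4 TPM, mostly in replicate 3 (limma, adjusted p = 0.358), and Nr4a3 (Nor1) had no read.

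The Kruppel-like factors were the steadiest group of transcription factors by summed level, with 426, 354 and 385 TPM. Klf9, a target of thyroid hormone and glucocorticoid receptors, had 153, 135 and 167 TPM, the narrowest range of the 21 members above 1 TPM (SD 0.15 in log2(TPM + 1); limma, adjusted p = 0.00337). Klf6, an injury-responsive factor, had 211, 117 and 180 TPM (limma, adjusted p = 0.00371). Klf6 and Klf9 did not differ beyond their spread, with a difference of 0.12 ± 0.33 on the log2(TPM + 1) scale that was positive in 2 of 3 libraries. Klf4, a factor of epithelial barriers and pluripotency, had 32.6, 56.0 and 15.4 TPM (limma, adjusted p = 0.0211). Klf2, a flow-responsive factor of endothelium, had 13.0, 41.7 and 23.1 TPM (limma, adjusted p = 0.0211). Replicate 2 was the highest for both. Klf10, an early gene of TGF-beta signalling, did not follow these, with 129, 32 and 1 reads (limma, adjusted p = 0.354).

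Of the dual-specificity phosphatases, which switch MAP kinases off again, Dusp6 and Dusp1 were above 1 TPM. Dusp6, a cytoplasmic phosphatase specific for ERK, had 96.5, 92.7 and 141 TPM (limma, adjusted p = 0.00356). Dusp1, a nuclear phosphatase acting mainly on p38 and JNK, had 53.0, 107 and 65.0 TPM (limma, adjusted p = 0.00525). Dusp6 was the higher in replicates 1 and 3 and Dusp1 in replicate 2, and their difference of 0.59 ± 0.69 on the log2(TPM + 1) scale was within the spread. Dusp2 had 13 reads in replicate 1 and none in the others, at least 4.14-fold higher there than the level of 3 reads in either of them (limma, adjusted p = 0.619). The ERK phosphatase genes Dusp4 and Dusp5 had no read, where 3 reads would have been 0.429 and 0.475 TPM in replicate 1.

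All 5 members that act in mRNA decay lay above 1 TPM. Btg1 had 254, 240.0 and 82.5 TPM and Btg2 had 96.2, 191 and 195 TPM (limma, adjusted p = 0.00785 and 0.00444). The pair changed order, with Btg1 higher in replicates 1 and 2 and Btg2 in replicate 3. Zfp36 (tristetraprolin), which binds AU-rich elements and destabilizes cytokine and early gene mRNAs, had 33.6, 16.5 and 57.7 TPM (limma, adjusted p = 0.0192). Its relative Zfp36l2 had 38.4, 91.7 and 12.5 TPM, in the reverse order over libraries (limma, adjusted p = 0.0470). Zfp36l1 had 21.6, 18.5 and 23.9 TPM, nearly level (limma, adjusted p = 0.00475). Reads of Btg1 could be split with near copies. Its pseudogenes Btg1-ps1 and Btg1-ps2 had 5 and 1 reads in replicate 2 and none in the others. In GENCODE M21, 1672 bases of Zfp36l1 lie opposite Gm26669.

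**Figure D2:**
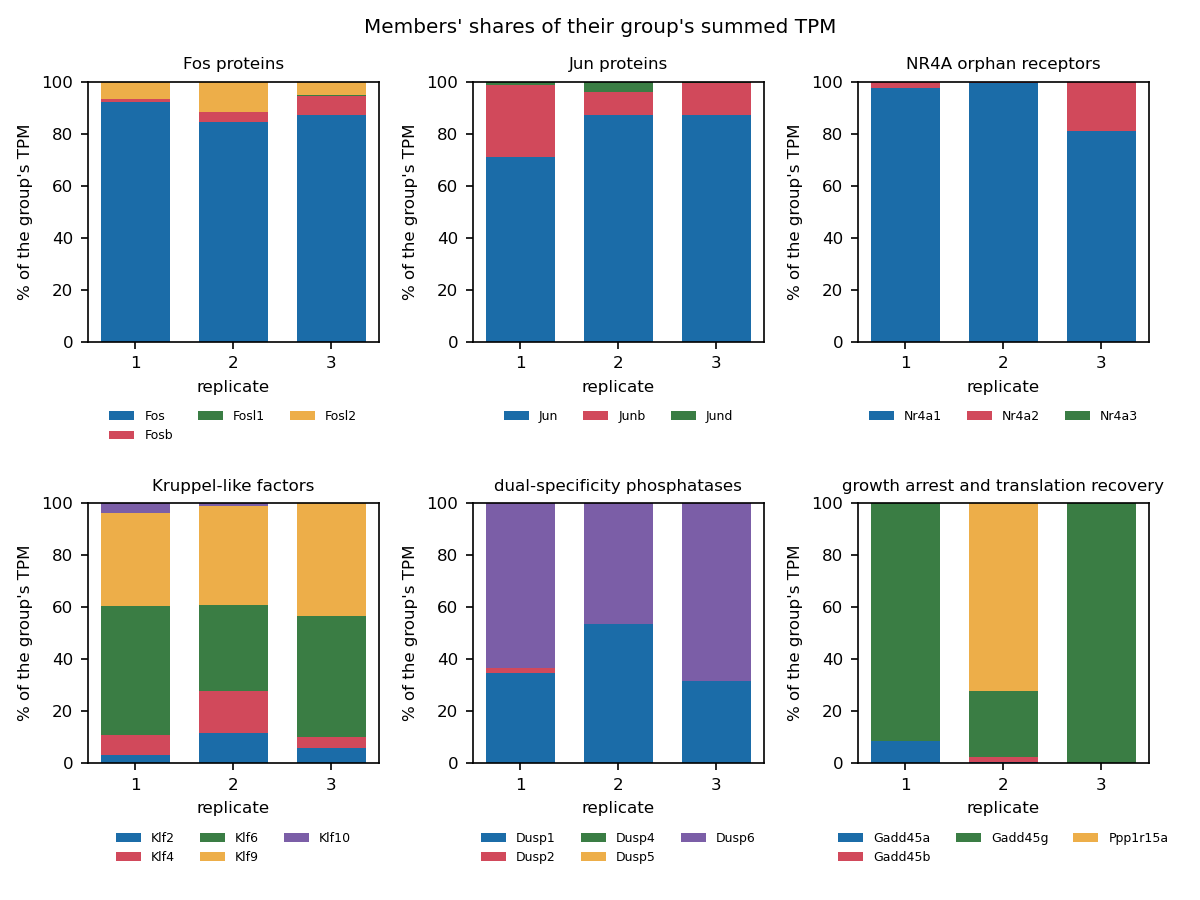
Share of each gene in the summed TPM of its role group, in percent, for replicates 1, 2 and 3 in 6 of the 11 groups. Fos and Nr4a1 fill over 80% of their groups in every library, whereas Ppp1r15a takes the place of Gadd45g as the leading growth arrest and translation recovery gene in replicate 2, at 72.1%.

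None of the 3 IER genes was called above 1 TPM. Ier2, a small nuclear protein used as a general marker of immediate early induction, had 1.35, 51.7 and 3.91 TPM from 5, 201 and 14 reads (limma, adjusted p = 0.225). Ier5, a cofactor of heat shock factor, had 19.1 TPM in replicate 2 from 160 reads and 1 and 2 reads in replicates 1 and 3 (limma, adjusted p = 0.668). Ier3, a survival gene induced by NF-kB, had 1, 47 and 31 reads, low in replicate 1 only (limma, adjusted p = 0.223). Replicate 2 held the highest value of all 3, and replicate 1 the lowest.

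None of the 4 growth arrest and translation recovery genes was called above 1 TPM. Gadd45g, a stress sensor that activates the p38 and JNK kinases, had 270.4, 4.08 and 54.6 TPM from 810, 12 and 153 reads, a range of 66.3-fold (limma, adjusted p = 0.0867). With a pseudocount of 0.25, a filter at 0.5 TPM or a trend it passed (limma, adjusted p = 0.0496, 0.0368 and 6.61e-07). Gadd45a, a target of p53, had 24.9 TPM in replicate 1 from 112 reads and none in the other libraries, at least 35.0-fold higher there than the level of 3 reads in either of them (limma, adjusted p = 0.709). Gadd45b had 1 read in all. Ppp1r15a (GADD34), which directs the phosphatase that ends the integrated stress response, had 11.5 TPM in replicate 2 and 1 and 0 reads in replicates 1 and 3 (limma, adjusted p = 0.809). The library in which Gadd45g was lowest was thus the only one with more than 1 read of Ppp1r15a.

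Among the remaining effectors Nfkbia stood out, with 309, 334 and 132 TPM, 6.91 above 1 TPM on the log2(TPM + 1) scale (SE 0.37, with an adjusted p of 0.00516 in limma). Rhob, an early-induced small GTPase of endosomes, had 33.9, 6.70 and 8.40 TPM (limma, adjusted p = 0.0491). Replicate 1 was high for Rhob, and the call was lost without mitochondrially encoded genes (limma, adjusted p = 0.0603). Sgk1, a kinase induced by glucocorticoids and osmotic stress, had 6.57, 119 and 10.9 TPM, with replicate 2 18.1-fold above replicate 1 (limma, adjusted p = 0.0785). The same settings called Sgk1 above (limma, adjusted p = 0.0464, 0.0428 and 0.00196). Arc, a synaptic immediate early gene of neurons, had 63, 2 and 0 reads, 8.10 TPM in replicate 1 (limma, adjusted p = 0.854). Neuronal markers had their lowest sum in that library, 126 TPM against 134 and 339 TPM in replicates 2 and 3.

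Differences between neighbours in the order of mean level within a role group were tested over 32 pairs with an exact two-sided sign-flip test, whose smallest p with 3 libraries is 0.25. No pair could pass, and the smallest adjusted p was 0.444. The order came from these same libraries, so a positive mean difference was fixed in advance, and the counts of pairs are description only. In 18 pairs the direction was the same in all 3 libraries. That count includes Dusp2 minus Dusp5, with no read of either in replicates 2 and 3, and Cebpb minus Maff, with none in replicate 3. Their sign there comes only from the added 0.25 read. In 9 of the 18 the mean difference exceeded 2 SD, among them Fos over Fosl2, Atf3 over Cebpb (2.72 ± 0.37 on the log2(TPM + 1) scale) and Rhob over Arc (2.57 ± 0.62).

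Members varied over the libraries to very different degrees. Among the 31 members with a mean of at least 5 TPM the median SD was 0.91 on the log2(TPM + 1) scale, beside 1.72 over all 10128 genes with such a mean. The 2 sets were not matched by level, and 12 members lay in the top 10% of genes with a read by mean TPM. Whether the lower spread goes with level was not tested. An SD under 1 was found for 17 of the 31, or 54.8%, and for 30.7% of those genes. Of 32 members with at least 10 TPM in 1 library, 6 were under 1 TPM in another, namely Nr4a2, Klf10, Ier3, Ier5, Gadd45a and Ppp1r15a, compared with 41.0% of all genes that reached 10 TPM. The library that was high differed between the 6, being replicate 1 for Klf10 and Gadd45a, replicate 2 for Ier3, Ier5 and Ppp1r15a, and replicate 3 for Nr4a2.

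**Figure D3:**
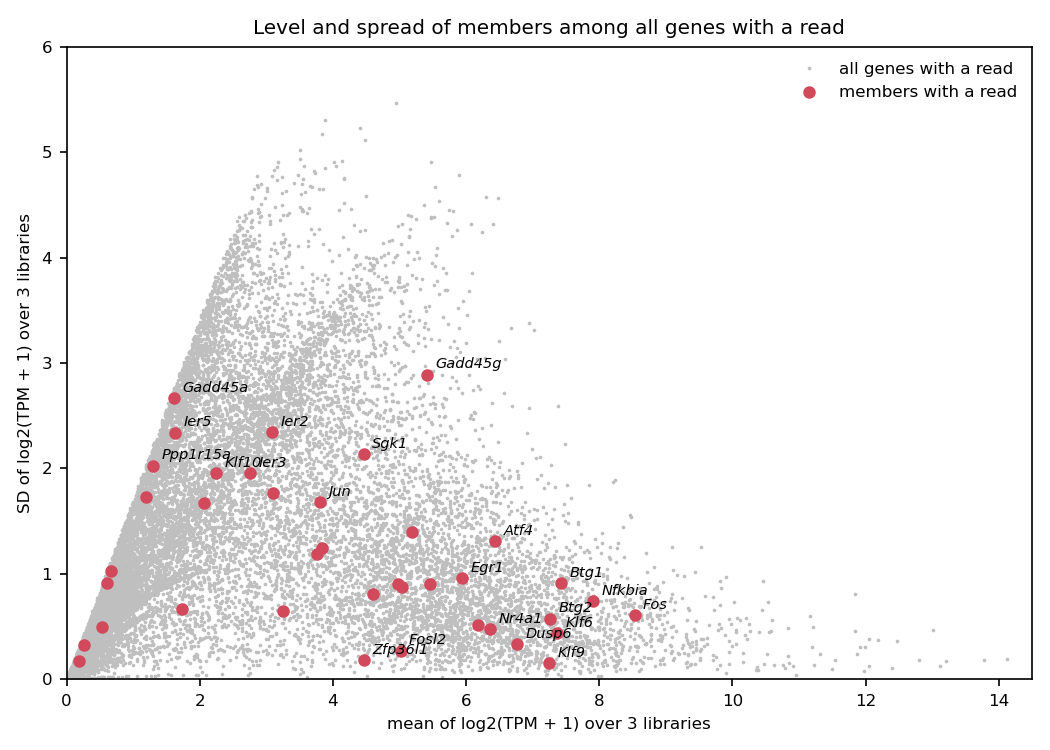
SD of log2(TPM + 1) over the 3 libraries against the mean of log2(TPM + 1), with the 39 members with a read as large points and all 27402 genes with a read as small points. Among members Klf9, Zfp36l1, Fosl2 and Dusp6 combine a high mean with a low SD, and Gadd45g and Gadd45a have the highest SD.

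Replicate 2 was the highest library for Jun, Junb, Jund, Ier2, Ier3, Ier5, Sgk1 and Ppp1r15a. It was also the highest for Atf3, Atf4, Cebpb, Nr4a1, Klf2, Klf4, Dusp1, Zfp36l2, Nfkbia and Gadd45b. Of the 31 members with a mean of at least 5 TPM, 9, 13 and 9 were highest in replicates 1, 2 and 3, and over all genes with such a mean the shares were 34.3%, 35.9% and 29.9%. Macrophage markers summed to 4.11, 173 and 104 TPM, and 11 of 14 had a library without a read. Mural markers summed to 579, 647 and 137 TPM. Perineurial markers summed to 537, 817 and 647 TPM and endothelial markers to 336, 475 and 339 TPM, both also highest in replicate 2. The sum for satellite glia and Schwann cells was highest in replicate 1, and those for fibroblasts, neurons and lymphocytes in replicate 3. The part of any of these cell types in the values of the variable members was not tested.

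Genes around the members came from 7 lists, counted whole. Their calls are read against the same background of 16.3% above. Heat shock genes were the list with most calls, 10 of 12 above 1 TPM, led by the chaperones Hspa8 at 1011 ± 249, Hsp90ab1 at 544 ± 119 and Hsp90aa1 at 503 ± 48.5 TPM (SD, n = 3). Dnajb1, a co-chaperone induced by heat shock factor, had 160, 305 and 1.73 TPM, so that replicate 3 lacked nearly all of it (limma, adjusted p = 0.122). Of 17 integrated stress and unfolded protein response genes 7 were above and 1 had no read, with the endoplasmic reticulum chaperone Hspa5 at 221 ± 90.4 TPM, Herpud1, of its protein degradation pathway, at 178 ± 138 and the factor Xbp1 at 97.0 ± 53.7. Eif2ak2, the kinase that senses double-stranded RNA, varied most and had 1, 299 and 877 reads.

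Of 20 upstream kinases and transcription factors 8 were above and none was below, led by the ERK gene Mapk3 (110.2 ± 58.7 TPM), the JNK gene Mapk8 (76.0 TPM on average) and Map2k1, the kinase of ERK (72.6 ± 46.0). The ribosomal S6 kinase gene Rps6ka1 had 416, 0 and 1 reads. Of 13 ERK feedback genes with a row, 3 were above, 1 below and 1 had no read. Spry2 and Spred1, inhibitors of receptor signalling to ERK, were nearly level at 139 ± 19.1 and 136 ± 15.1 TPM (limma, adjusted p = 0.00337 for each), close to Dusp6, and Dusp3 had 10.6, 109 and 30.5 TPM. Spred2 had 23.9, 46.5 and 0.656 TPM. The gene below was Dusp7, named after its values were seen.

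Of the other 15 genes of the NF-kB system, to which Nfkbia belongs, 2 were above, 12 neither and 1 had no read. Its highest genes were not called. Chuk, a kinase of the inhibitor, had 9.48, 53.6 and 198 TPM (limma, adjusted p = 0.0511), the subunit Rela had 17.6, 155 and 0.808 TPM (limma, adjusted p = 0.196), and Nfkbiz, an inducible nuclear cofactor, had 1.66, 78.6 and 44.7 TPM (limma, adjusted p = 0.118). Tnfaip3 (A20), a feedback inhibitor, had 453, 3 and 2 reads. Each of the 4 had at least 1 library under 10 TPM, and Tnfaip3 had 2.

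Of 10 genes of the glucocorticoid receptor and its targets 4 were above and 6 neither. Metallothionein Mt1 had 379 ± 127 TPM, Tsc22d3 (GILZ) 323 ± 147 and the receptor gene Nr3c1 112 ± 38.1. Errfi1, an inhibitor of the EGF receptor, had 137, 187 and 2.36 TPM. Of 20 other immediate early genes 8 were above, 2 below and 10 neither. They were led by Id3, Id2 and Id1, inhibitors of basic helix-loop-helix factors, at 901 ± 83.7, 212 ± 47.0 and 147 ± 51.4 TPM. Bhlhe40, a repressor of the same class, had 870, 630 and 2 reads. The 2 genes below were the neuronal activity factor Npas4 and Ier5l, named after their values were seen.

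**Figure D4:**
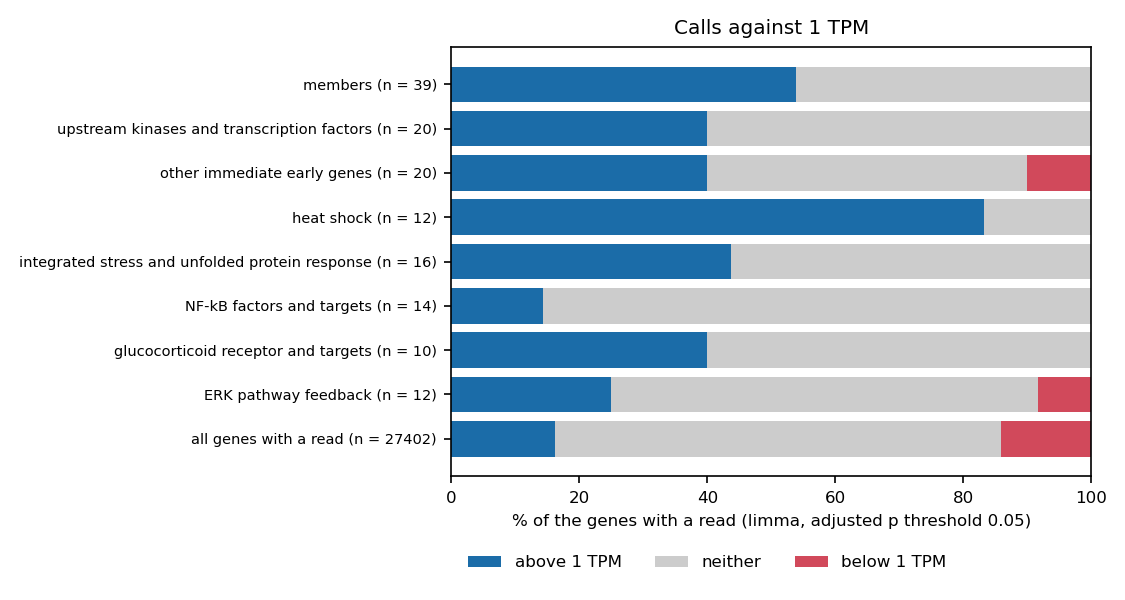
Percent of genes with a read that limma called above 1 TPM, neither or below, for the members, the 7 lists of related genes and all 27402 genes with a read. Of members 53.8% of the 39 with a read were above, of heat shock genes 10 of 12, and of all genes 16.3%.

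Motif letters were counted in the RefSeq windows on both strands, for the 35 members and for all 27025 genes with a window. Those genes were not selected by gene type, whereas all members are protein-coding. RefSeq starts can differ from those of GENCODE, and the window of Jund ends before its GENCODE gene begins. A match is a description of letters only, and a missing match holds for the window only. The full CRE was in 11.4% of members and 2.03% of all genes, and its core TGACG, which also lies within the full CRE, in 21 of the 35 and 23.0%. The GC box GGGCGG was in 74.3% and 38.2%, the EGR site GCGNGGGCG, which can overlap it, in 31.4% and 6.27%, and the TATA box TATAAA in 31.4% and 15.7%. NF-kB sites were in 22.9% and 9.55% and CArG boxes in 5.71% and 1.81%. The AP-1-like pattern TGANTCA, which leaves the central base open, was in 5.71% of members and 8.97% of all genes. The member matches were TGAATCA in Klf9 and TGATTCA in Zfp36l1, both with A or T at that base. The C/EBP-ATF site TGATGNAA was in 5.71% and 4.51%, the KLF site CACCC in 68.6% and 59.8%, and the NR4A site AAAGGTCA in none of the members and 1.70% of genes. The windows of members had a median GC content of 63.7%, beside 52.8% for all genes. The part of that content in the shares of GC-rich motifs was not tested.

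**Figure D5:**
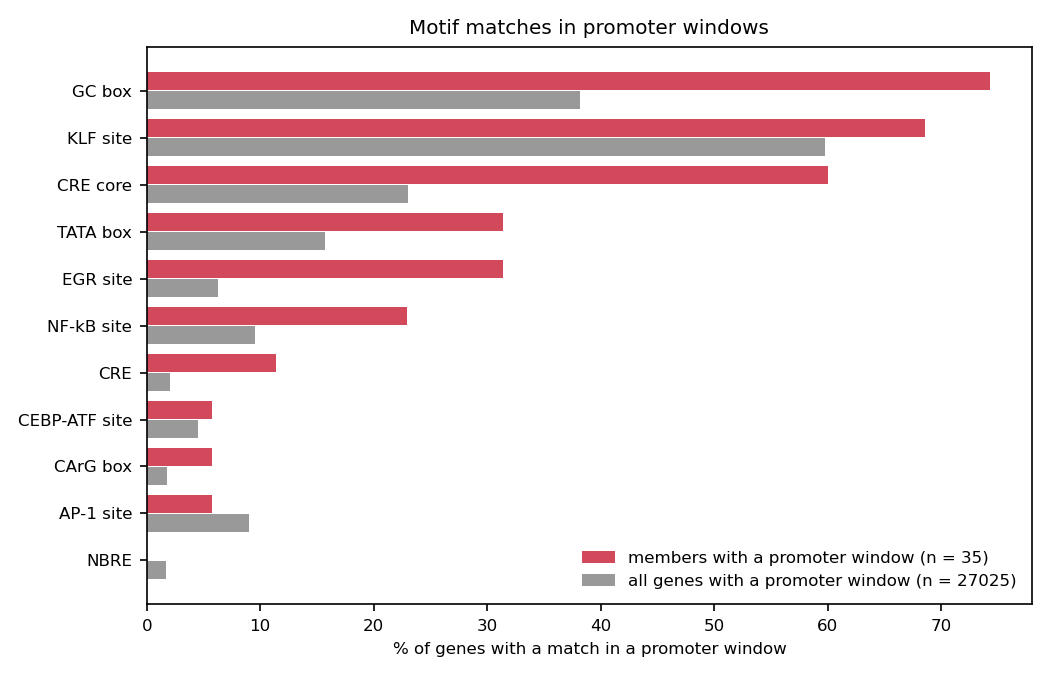
Percent of genes with at least 1 match to each motif in a promoter window, for 35 members and for 27025 genes with a window, which were not selected by gene type. The core of the CRE, the GC box and the EGR site were matched in a larger share of members than of all genes. The AP-1-like pattern TGANTCA, labelled AP-1 site, was matched in a smaller share.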

How the data were processed

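The authors deposited log2 TPM for 3 libraries of 1 group. Alignment tools and build per the submitters' processing notes are STAR, featureCounts and mm10 (GRCm38). The sources used here give no versions, annotation release or strand setting. The values fitted 0.25 read added to each gene before division by length, so whole reads were recovered with GENCODE M21 exon lengths (49791 genes) or, failing that, the smallest whole length that made all libraries whole (2758 genes, 7 of them members), within 0.02 read. This gave reads for 99.998% of 52550 genes. Since PCR copies were counted with no molecular identifier, floors of 3 reads cover counting error only. Where a library had no read, reads are printed in place of TPM, while means, SDs and tests use the deposited values. Genes with a read (27402) entered limma 3.58.1 (R 4.3.3) on log2(TPM + 1), after a check on simulated data, with prior degrees of freedom of 1.19. Pairs of members were compared by exact sign-flip tests in Python 3.11.15 (scipy 1.17.1). P-values measure only the spread between these 3 libraries. The members, lists and tests were chosen with earlier results of these data known. All members are named, and of each related list the 3 highest genes by mean TPM and the 1 with the widest spread among those with a mean of at least 5 TPM. Alternatives were another pseudocount, other filters, a mean-variance trend, leaving out mitochondrially encoded genes, another tested level and leaving out each replicate.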

Additional observations from a re-analysis of the deposited data

How the results depend on the processing

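The 21 members above 1 TPM became 24 with a pseudocount of 0.25, 22 with a filter at a mean of 0.5 TPM, 21 with no filter, 23 with a mean-variance trend, 19 without mitochondrially encoded genes and 15 at a level of 10 TPM. Leaving out 1 replicate gave 0 to 10, where fewer samples enter the fit. Members below numbered 7 with no filter, which adds the 5 without a read, 2 with the trend, 6 at 10 TPM and 0 to 1 with a replicate left out. Genes above, 4458 over all genes tested, became 5045 with a pseudocount of 0.25, 4736 with the filter and 6258 with no filter. They numbered 5584 with the trend and 4143 without mitochondrially encoded genes. At 10 TPM there were 2896, and with a replicate left out 0 to 2435. Genes below, 3859, became 0 with the filter, 29850 without one, 9657 with the trend, 0 without mitochondrially encoded genes, 15567 at 10 TPM and 0 to 4898 with a replicate left out, and apart from the filters and the tested level the cause was not tested. Without mitochondrially encoded genes the summed level of members was 2904 TPM, against 2312, since the rest of each library then makes up the whole. The median over the 39 members with a read, taken in each library and averaged over libraries, was then 4.58, against 4.27. At 10 TPM, a higher reference by construction, members that turned were Junb (-1.73), Atf3 (-0.21), Egr3 (-0.36), Nr4a2 (-1.40), Klf10 (-1.22), Ier2 (-0.38), Ier3 (-0.70), Ier5 (-1.83), Gadd45a (-1.84), Ppp1r15a (-2.15) and Arc (-2.26). With a pseudocount of 0.25 Ppp1r15a (-0.16) and Arc (-0.20) turned. Without replicate 1, Gadd45a (-0.92) and Arc (-0.79) turned, and without replicate 2, Ier5 (-0.72) and Ppp1r15a (-0.86), each being high in the library left out. The highest values with a replicate left out were 1.35 for Ier5, 1.39 for Gadd45a, 0.93 for Ppp1r15a and 0.78 for Arc. None of these reversed members but Atf3 had been called. No paired analysis was possible because the series has 1 group. Depth limits members with few reads, such as Jund, Cebpb and Fosl1, whose levels rest on fewer than 10 reads in any library.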

Other observations

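The members also differed by the base composition of their own transcripts. For the longest protein-coding GENCODE M21 transcript of each gene, the median GC content was 54.7% over the 44 members and 49.5% over 17148 protein-coding genes with a read. Egr4, Cebpb, Jund, Junb, Klf2 and Ier2 had 60% or more, with a median of 1.67 TPM, and Klf2 alone of these was above 1 TPM. The 38 members with less had a median of 20.8 TPM, and 20 of them were above. Among protein-coding genes with a read, the 703 with 60% or more had a median of 0.767 TPM and the 16445 with less 4.66 TPM, so the direction was shared. Across the 44 members GC content and mean log2(TPM + 1) had a Spearman rho of -0.44 and a Pearson r of -0.48. Across the 17148 genes rho was -0.14 and r was -0.19. The sets are unlike, since the 44 include 5 members without a read and the 17148 all have one. These are descriptions across genes, which share the same 3 libraries and are not independent replicates.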
